A study of Mus musculus with 6 samples.

Results

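The 10 genes described here make the core of the regulated secretory pathway of peptide neurons: the granins Chga, Chgb, Scg2, Scg3 and Vgf, the chaperone gene Scg5, and the peptide-processing enzymes Pcsk1, Pcsk2, Cpe and Pam. They were chosen by gene symbol from the 27884 genes of the deposited table, and each symbol matched 1 gene. Tissue came from the preoptic area (POA), the part of the hypothalamus that regulates body temperature, of female NuTRAP::Pnoc-Cre mice aged 17 to 18 weeks. In NuTRAP mice, cells that have expressed Cre make ribosomal protein L10a fused to EGFP, and here Cre was driven by Pnoc, the gene of the nociceptin precursor. The IP libraries (n = 3) hold RNA bound to ribosomes captured with an antibody against GFP, and the Input libraries (n = 3) hold total RNA of the tissue. Both groups share genotype, sex, age and the absence of any treatment in the labels, and each replicate is a pool of 3 animals. An IP from mice without Cre was not analysed here, and cells that expressed Pnoc earlier in life may carry the tag. Poly(A) RNA was sequenced, with total counts from 48204567 to 51380354 in IP and from 49068467 to 53056642 in Input libraries.

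Neuropeptides are made as long precursors and stored in dense-core vesicles, which release them when the neuron is active. Granins are acidic proteins that aggregate with the precursors in the trans-Golgi network and help to form these vesicles. The prohormone convertases PC1/3 (Pcsk1) and PC2 (Pcsk2) cut precursors after pairs of basic residues. Carboxypeptidase E (Cpe) then trims the basic residues, and peptidylglycine alpha-amidating monooxygenase (Pam) converts a terminal glycine to an amide. Scg5 encodes 7B2, which PC2 needs to become active.

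The promoter sequences of the 4 members that differed between IP and Input, and the stretches around a palindrome in a further pair, are shown because granin genes are known targets of the cyclic AMP pathway, whose factor CREB binds the cAMP response element TGACGTCA. Sequences are RefSeq's, listed on GRCm38.p6 for 8 of the 10 genes, and were placed on GRCm39 (mm39, the build of the table) by exact match. Vgf and Cpe had no listed window and were not searched. The whole windows reach from 250 bases before to 50 bases after the RefSeq start and are written 5′ to 3′ on the gene's strand. Capitals mark TGACG or its reverse complement CGTCA, and TGACGTCA holds both, overlapping.
Chga (chr12:102520950-102521249, plus strand): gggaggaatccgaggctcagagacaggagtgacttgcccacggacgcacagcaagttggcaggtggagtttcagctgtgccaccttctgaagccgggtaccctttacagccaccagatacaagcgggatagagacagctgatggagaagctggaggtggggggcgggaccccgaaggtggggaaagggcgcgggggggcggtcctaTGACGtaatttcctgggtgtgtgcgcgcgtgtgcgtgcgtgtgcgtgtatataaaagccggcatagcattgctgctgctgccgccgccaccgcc
Scg5 (chr2:113659387-113659686, minus strand): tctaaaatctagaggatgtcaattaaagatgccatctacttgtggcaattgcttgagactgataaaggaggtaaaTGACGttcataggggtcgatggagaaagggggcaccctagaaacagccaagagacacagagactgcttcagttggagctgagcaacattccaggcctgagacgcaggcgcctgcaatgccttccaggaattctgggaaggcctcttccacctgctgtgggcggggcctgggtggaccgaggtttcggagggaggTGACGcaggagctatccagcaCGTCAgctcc
Scg3 (chr9:75591289-75591588, minus strand): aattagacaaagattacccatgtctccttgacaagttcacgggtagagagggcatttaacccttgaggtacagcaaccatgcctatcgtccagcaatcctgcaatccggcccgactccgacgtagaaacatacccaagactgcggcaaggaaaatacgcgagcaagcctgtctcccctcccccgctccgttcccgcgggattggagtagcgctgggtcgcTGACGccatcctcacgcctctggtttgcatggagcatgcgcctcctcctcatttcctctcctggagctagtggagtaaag
Pcsk1 (chr13:75237726-75238025, plus strand): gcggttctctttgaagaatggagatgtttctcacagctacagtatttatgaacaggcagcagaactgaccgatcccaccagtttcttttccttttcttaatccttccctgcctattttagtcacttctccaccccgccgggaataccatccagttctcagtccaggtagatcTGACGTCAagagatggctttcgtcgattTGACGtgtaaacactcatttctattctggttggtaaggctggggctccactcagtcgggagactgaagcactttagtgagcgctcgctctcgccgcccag
Scg2 (chr1:79417768-79417847, minus strand): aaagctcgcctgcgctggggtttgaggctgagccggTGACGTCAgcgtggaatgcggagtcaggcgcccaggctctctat
Chgb (chr2:132623454-132623533, plus strand): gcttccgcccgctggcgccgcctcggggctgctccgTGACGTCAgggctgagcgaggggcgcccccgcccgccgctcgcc

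The palindrome TGACGTCA stood in the windows of Scg2, Chgb and Pcsk1, with its first base at -68, -72 and -78 from the RefSeq start. The RefSeq starts of Scg2 and Chgb lie 94 and 364 bases inside the gene spans given below. The palindromes of Scg2 and Chgb therefore fall within those spans, and that of Pcsk1 lies before its span. Single half-sites lay at -44 in Chga, -30 in Scg3 and -34 in Pcsk2, while Scg5 held 3 and Pcsk1 had one beside its palindrome. The Pam window held none of these letters. Of 32851 promoter windows in the RefSeq table, alternative starts included, 1.79% held TGACGTCA and 20.8% held TGACG on either strand, against 3 and 7 of the 8 members with a window. A match is a match of letters only. Of the 3 members with the palindrome, only Pcsk1 passed the test between IP and Input.

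The 10 genes did not change as a group. Chga and Scg5 rose about 2-fold in IP, Scg3 and Pcsk1 fell, and the other 6 did not pass the test. The test was edgeR's quasi-likelihood test over 18640 genes with Benjamini-Hochberg adjustment, and a gene is called at an adjusted p under 0.05. It did not use the pairing of libraries by pool. With 2 of 10 members called higher and 2 called lower, the shares lie near those of all tested genes, of which 12.9% were called higher and 17.1% lower. With the replicate as a block, 3 members were called higher and 3 lower, against 2838 and 3617 of the 18640 genes. Without overlap between the groups, the 3 IP libraries lay above the 3 Input libraries for Chga, Scg5 and Scg2 and below them for Scg3, Pcsk1 and Cpe, or 3 of 10 each way, against 21.7% above and 26.0% below among all tested genes. The median log2 fold change of the members was 0.23, against -0.07 over all tested genes and 0.47 over 18 pan-neuronal genes. In total RNA from tissue, fewer cells of a type and less RNA per cell cannot be told apart. IP holds ribosome-bound RNA and Input total RNA, and the part of ribosome binding in the differences was not tested.

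**Figure D1:**
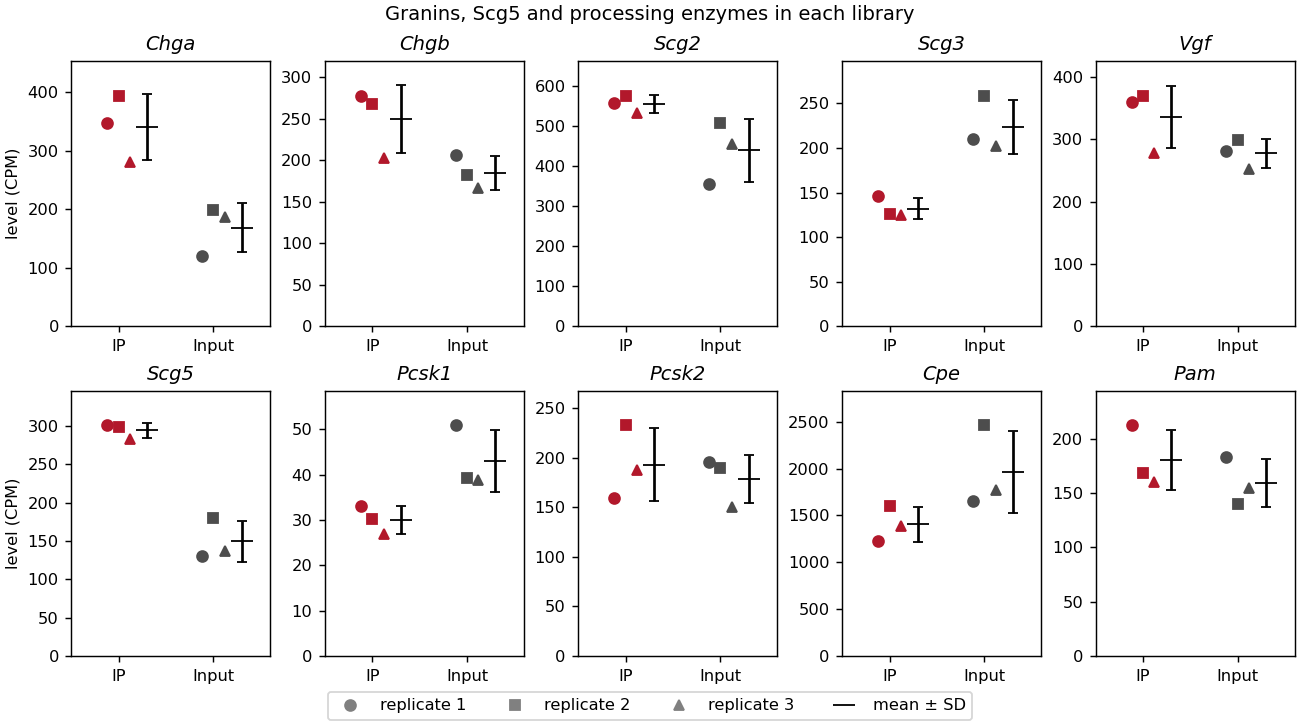
Level of each member in every library, in CPM with TMM-scaled library sizes; points are libraries, marked by replicate, and bars give the mean and SD of 3. The IP libraries of Chga lie between 282 and 394 CPM, above the Input range of 121 to 199 CPM, and those of Scg3 lie between 125 and 146 CPM, below the Input range of 203 to 259 CPM.

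Chga rose in IP. It encodes chromogranin A, which promotes vesicle formation and is itself cut into peptides such as catestatin. The gene (ENSMUSG00000021194, chromosome 12, 102521228 to 102531287, plus strand, mm39) had 347, 394 and 282 CPM in IP replicates 1, 2 and 3, against 121, 199 and 187 CPM in Input. Every IP library was above every Input library, and Input replicate 1 was the lowest of all. The means were 341 ± 56.5 CPM in IP and 169 ± 42.1 CPM in Input (SD, n = 3 each). On the log2 scale IP exceeded Input by 1.01 ± 0.21 (SE), or 2.02-fold (edgeR, adjusted p = 0.00861). Within pools the log2 ratio of IP over Input was 1.52, 0.99 and 0.59, positive in 3 of 3 but unequal in size. Leaving out single libraries gave values between 0.83 and 1.18, called each time. Without both libraries of replicate 3 the value was 1.22 and the call was lost (adjusted p = 0.0731, edgeR).

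Chgb, Scg2 and Vgf had small positive differences that did not pass the test. Chgb encodes chromogranin B (chromosome 2, 132623198 to 132636999), and Gm74864 overlaps it on the opposite strand. It had 278, 268 and 203 CPM in IP against 207, 182 and 166 CPM in Input, and the groups overlapped at the lowest IP and the highest Input library. Its log2 fold change was 0.43 ± 0.16 (SE, adjusted p = 0.0687, edgeR). With the replicate as a block, which compares IP and Input within each pool, Chgb was called at 0.42 (adjusted p = 0.0317, edgeR), and in the authors' deposited table its adjusted p was 0.0374.

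Scg2 encodes secretogranin II, the precursor of secretoneurin (chromosome 1, 79412386 to 79417837, minus strand). Its IP libraries had 557, 576 and 533 CPM and its Input libraries 355, 508 and 457 CPM. All IP libraries lay above all Input libraries, but Input replicate 1 stood well below the other two. The log2 fold change of 0.34 ± 0.15 (SE) missed the threshold (adjusted p = 0.118, edgeR). Vgf encodes the precursor of TLQP-21 and related peptides (chromosome 5, 137055246 to 137062205). It had 359, 369.8 and 279 CPM in IP against 281, 299 and 253 CPM in Input, with overlapping groups. Its log2 fold change of 0.27 ± 0.14 (SE, adjusted p = 0.185, edgeR) turned to -0.12 after a correction of each library for gene length and GC content.

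Scg3 went the other way. It encodes secretogranin III, which links chromogranin A to cholesterol-rich vesicle membranes, and it is known to be made by astrocytes as well as by neurons. The gene (ENSMUSG00000032181, chromosome 9, 75550471 to 75591338, minus strand) had 146, 125 and 125 CPM in IP, against 209.6, 259 and 203 CPM in Input. No IP library reached any Input library. The difference of -0.76 ± 0.14 on the log2 scale (SE) corresponds to a 1.69-fold lower level in IP (edgeR, adjusted p = 0.00542). The pools gave log2 ratios of -0.52, -1.04 and -0.69. Gm37871 and Gm68716 overlap Scg3 on the opposite strand, and their reads were not told apart here. Leaving out single libraries kept the call at values between -0.83 and -0.60. It was lost without both libraries of replicate 2 (-0.57, adjusted p = 0.056, edgeR) and of replicate 3 (-0.79, adjusted p = 0.0884, edgeR).

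Astrocyte markers also fell in IP, and further than Scg3. All 13 of these genes fell, against 17.1% of all tested genes, and their median was -2.65 on the log2 scale. Their summed level was 1103 to 1286 CPM in IP and 4487 to 4939 CPM in Input libraries, and none was at 0 in any library. The fall was not particular to astrocytes, since oligodendrocyte and microglial markers had medians of -3.23 and -3.10. The part of astrocyte or other glial RNA in the values of Scg3 and Cpe was not tested.

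Scg5 had the smallest adjusted p of the members. The gene of the PC2 chaperone 7B2 (ENSMUSG00000023236, chromosome 2, 113606707 to 113659466, minus strand) had 300.5, 299 and 283 CPM in IP, against 131, 180.2 and 137 CPM in Input. The 3 IP libraries lay close together and far above the Input libraries. The means were 294 ± 9.80 CPM in IP and 149 ± 26.8 CPM in Input (SD, n = 3 each). This 1.97-fold difference is 0.98 ± 0.15 on the log2 scale (SE; edgeR, adjusted p = 0.00231). It was the 1 member that also passed a test against a fold change of 1.5 (adjusted p = 0.0345, edgeR). The pools gave 1.20, 0.73 and 1.04. Without both libraries of replicate 3 the call was lost at a value of 0.95 (adjusted p = 0.0731, edgeR).

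Neither convertase gene rose. Pcsk1, the gene of PC1/3 (ENSMUSG00000021587, chromosome 13, 75237945 to 75282980), had 33.0, 30.2 and 26.9 CPM in IP, against 50.9, 39.4 and 38.8 CPM in Input. All IP libraries lay below all Input libraries, and every pool showed the same sign, with log2 ratios of -0.62, -0.38 and -0.53. Its log2 fold change was -0.52 ± 0.16 (SE; edgeR, adjusted p = 0.0402), a 1.43-fold lower level in IP. This call was weak. Of the 6 fits that left out 1 library, only that without Input replicate 2 kept it (adjusted p = 0.0491, edgeR), and the length and GC correction reduced the value to -0.12 (adjusted p = 0.57, edgeR).

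Pcsk2, the gene of PC2 (chromosome 2, 143388076 to 143658205), did not pass. It had 159, 232 and 188 CPM in IP against 196, 189 and 150.2 CPM in Input, with overlapping groups and a negative log2 ratio of -0.30 in pool 1 against 0.30 and 0.32 in the other pools. IP minus Input was 0.11 ± 0.17 on the log2 scale (SE, adjusted p = 0.659, edgeR), and its sign turned, to -0.037, without IP replicate 2. Strand use in counting is not given in the sources used here. Reads of the antisense gene Pcsk2os1 cannot be told apart without strand, and its counts came to at most 3.98% of those of Pcsk2 in any library.

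Magnocellular genes, which mark the vasopressin and oxytocin neurons that are rich in secretory proteins, also differed. Of 5 such genes 3 fell in IP and Otp rose, where 17.1% of all tested genes fell and 12.9% rose. Their summed level was 199 to 348 CPM in IP and 314 to 637 CPM in Input. None was at 0 in any library, and the part of these cells in the value of Pcsk1 was not tested.

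The 2 enzymes that finish a peptide did not pass the test, and they pointed in opposite directions. Cpe (ENSMUSG00000037852, chromosome 8, 65045576 to 65146088, minus strand) had 1225, 1597 and 1391 CPM in IP, against 1649.7, 2461 and 1769 CPM in Input. The highest IP library lay just below the lowest Input library, and Input replicate 2 stood far above the rest. Its log2 fold change was -0.48 ± 0.17 (SE, adjusted p = 0.0703, edgeR), and without Input replicate 2 it was -0.24. Cpe was called lower with the replicate block at -0.47 (adjusted p = 0.015, edgeR), with library totals alone at -0.59 (adjusted p = 0.0335, edgeR) and after length and GC correction at -0.64 (adjusted p = 0.0123, edgeR). The gene is also known from astrocytes, and the part of their RNA in the value of Cpe was not tested.

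Pam (chromosome 1, 97722839 to 98023371, minus strand) had 212, 169 and 161 CPM in IP against 183, 140.0 and 155 CPM in Input, with overlapping groups. Its difference on the log2 scale was 0.18 ± 0.16 (SE, adjusted p = 0.431, edgeR), with 0.052 without IP replicate 1 and 0.30 without Input replicate 1. After length and GC correction it was 0.45 and called (adjusted p = 0.0278, edgeR). At 11892 bases Pam is the longest of the 10 genes in the table's annotation, and Scg5, at 1569 bases, is the shortest. Genes that overlap Pam on its own strand, B230216N24Rik and Btf3-ps1, reached at most 6.37% and 5.04% of its counts in any library.

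**Figure D2:**
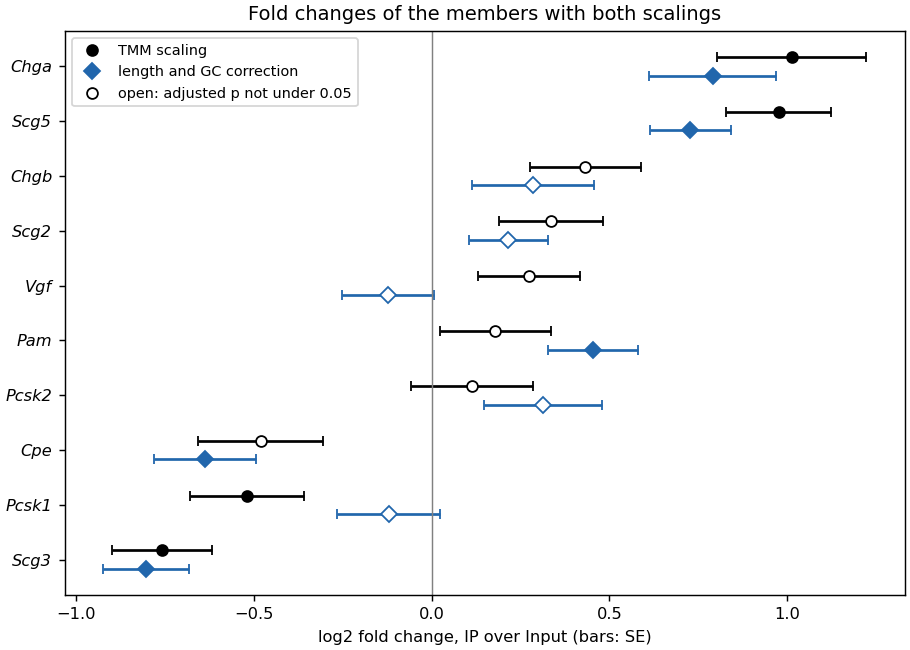
Log2 fold change of IP over Input for each member (bars, SE) with TMM scaling (circles) and after correction of each library for gene length and GC content (diamonds); filled symbols have an adjusted p under 0.05. Chga, Scg5 and Scg3 are called with both, Pcsk1 only with TMM scaling at -0.52, and Cpe and Pam only after correction at -0.64 and 0.45.

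The processing mattered for called members as well as for the weaker ones. Length and GC correction lowered Chga from 1.01 to 0.79 and Scg5 from 0.98 to 0.73 on the log2 scale, and both stayed called. Pcsk1 and Vgf, which the correction moved to -0.12, have the lowest and highest GC content of the members, at 39.2% and 64.1%. The correction was fitted within each library to genes that may truly differ, so it can also remove differences that go with length or GC. Without TMM factors the log2 fold changes shifted by -0.105 at the median over all genes. Pcsk2 then stood at 0.0090 and Pam at 0.075, and none of the 10 members changed sign. In the authors' deposited table, made with DESeq2, Chga stood at 1.04, Scg5 at 1.0, Scg3 at -0.73 and Pcsk1 at -0.49, with adjusted p of 3.66e-05, 2.25e-07, 0.000141 and 0.0362.

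Levels compared per length, in the authors' FPKM, spanned a wide range, and the enzymes stood at both ends of it. Cpe was the most abundant member with 538 ± 73.6 FPKM in IP and 737 ± 169 FPKM in Input (SD, n = 3 each), rank 18 of all genes in the mean of Input. Pcsk1 was the least abundant, with 5.35 ± 0.51 FPKM in IP and 7.51 ± 1.11 FPKM in Input (SD, n = 3 each). In IP the order below Cpe was Scg2 (221 FPKM), Scg5 (187 FPKM), Chga (124 FPKM), Vgf (113 FPKM), Chgb (90.9 FPKM), Scg3 (48.2 FPKM), Pcsk2 (24.4 FPKM) and Pam (15.2 FPKM). The ranges of Chga and Vgf and of Vgf and Chgb overlapped, and those of the other neighbours did not. In Input the middle of the order closed up: Scg5, Vgf, Scg3, Chgb and Chga averaged 93.4, 91.5, 80.1, 66.1 and 60.2 FPKM, each overlapping in range with the next.

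Ratios between members, in which the scaling of a library cancels, show the members against each other within each library. An effect of gene length or GC content that differs between libraries does not cancel, and the ratios were not corrected for it. Scg5 stood at 9.53, 6.48 and 7.59 times the FPKM of Pcsk2 in IP, against 3.37, 4.80 and 4.61 times in Input, so the chaperone exceeded its convertase by more in every IP library. The mean log2 ratio was 2.96 ± 0.28 in IP and 2.07 ± 0.28 in Input (SD, n = 3 each). Scg5 has 1569 bases and Pcsk2 has 7910. After length and GC correction the log2 fold changes were 0.73 for Scg5, 0.31 for Pcsk2 and -0.12 for Pcsk1. Pcsk1 stood at 0.293, 0.183 and 0.202 times the FPKM of Pcsk2 in IP, against 0.367, 0.294 and 0.364 times in Input, with IP replicate 1 just below the lowest Input library.

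Chga stood at 1.24, 1.46 and 1.38 times the FPKM of Chgb in IP, against 0.581, 1.09 and 1.12 times in Input. The ratio was higher in every IP library than in every Input library, and in Input replicate 1 Chga stood below Chgb. Cpe stood at 26.3, 43.1 and 39.5 times the FPKM of Pam in IP, against 41.1, 80.1 and 52.0 times in Input, with overlapping groups. In a two-sided exact permutation test of 3 against 3 libraries, where the smallest possible p is 0.10, p was 0.10 for the first 3 ratios and 0.20 for Cpe over Pam (0.13 and 0.20 when adjusted over the 4 ratios). This test cannot give a p under 0.05 with 3 libraries a group. Within pools, IP minus Input on the log2 scale was -0.64, -0.89 and -0.40 for Cpe over Pam, negative in 3 of 3 although the groups overlapped. For Scg5 over Pcsk2 the pools gave 1.5, 0.43 and 0.72, for Chga over Chgb 1.10, 0.43 and 0.30, and for Pcsk1 over Pcsk2 -0.32, -0.68 and -0.85.

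Of the 5 ratios computed, the widest separation was between Chga and Scg3, a pair of proteins known to bind each other, chosen after its values were seen and not tested. Chga stood at 2.37, 3.12 and 2.24 times the FPKM of Scg3 in IP, against 0.572, 0.764 and 0.918 times in Input. Chga was the more abundant of the pair in all 3 IP libraries and the less abundant in all 3 Input libraries.

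**Figure D3:**
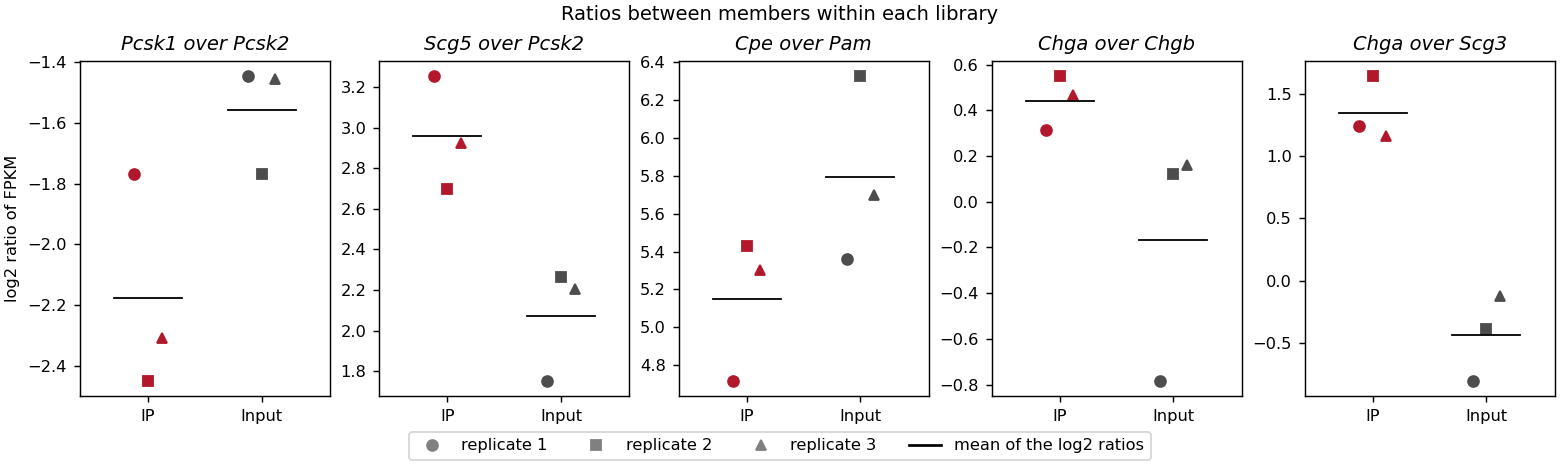
Log2 ratio of the FPKM of one member over another within each library, in IP and Input; points are libraries, marked by replicate, and lines are means of the log2 ratios. Scg5 over Pcsk2 and Chga over Scg3 are higher in all IP than in all Input libraries, and Cpe over Pam overlaps.

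Profiles were also compared across the 6 libraries, by the root mean square difference of log2 CPM centred on each gene's mean. Of 10109 protein-coding genes with a mean of at least 3 log2 CPM, those nearest to the mean profile of the granins with Scg5 were Rtcb, Phb2 and Slc35e4, at 0.030, 0.032 and 0.032. That mean combines Chga (log2 fold change 1.01) and Scg5 (0.98) with Scg3 (-0.76), which moved the other way. Among those nearest to the mean of the 4 enzymes were Dnajc21 and Med24, at 0.034 and 0.041. None of these 5 genes was called. Their log2 fold changes were 0.39, 0.38 and 0.42 near the granin mean and -0.16 and -0.11 near the enzyme mean. With 6 libraries and so many genes, close profiles are a description only.

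Of 16 other processing enzymes and inhibitors tested, 2 rose and 3 fell, or 12.5% and 18.8%, near the 12.9% and 17.1% of all tested genes. Their median lay at -0.04 on the log2 scale. Cyb561, whose cytochrome returns electrons to the ascorbate that the amidating enzyme uses, had 129.8, 130.2 and 136 CPM in IP against 66.2, 65.9 and 61.2 CPM in Input. It rose by 1.03 ± 0.11 on the log2 scale (SE, adjusted p = 0.000577, edgeR), with the groups far apart. Pcsk1n encodes proSAAS, an inhibitor of PC1/3, and had 1294, 1251 and 1355 CPM in IP against 779, 1094 and 881 CPM in Input. It was called at 0.50 ± 0.14 (SE, adjusted p = 0.0286, edgeR), but in only 2 of 6 fits that left out 1 library, and after length and GC correction it stood at 0.19.

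Pcsk6, the gene of the broadly expressed convertase PACE4, was lower at -1.87 ± 0.20 (SE), with 4.84, 5.27 and 3.67 CPM in IP against 15.9, 18.0 and 16.4 CPM in Input. Cpm, a carboxypeptidase held at the cell surface, was lower at -2.29 ± 0.30 (SE), with 3.03, 2.08 and 3.10 CPM in IP against 10.7, 18.4 and 11.0 CPM in Input. The third to fall was Cpd, a carboxypeptidase of the trans-Golgi network that resembles Cpe in activity, at -0.65. Each of these had an adjusted p of 0.0099 or less in edgeR's test.

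Of 34 tested genes of vesicle assembly, transport and release, 10 rose and 3 fell, or 29.4% and 8.82%, against 12.9% and 17.1% of all tested genes, and the median on the log2 scale was 0.24. Pick1, which acts in the budding of dense-core vesicles, had 26.9, 26.9 and 28.9 CPM in IP against 9.10, 9.70 and 11.7 CPM in Input, a log2 fold change of 1.44 ± 0.16 (SE). Vamp2, the vesicle SNARE of regulated release, stood at 0.75 ± 0.10 (SE). Sytl4, or granuphilin, which tethers granules, was lower at -1.32 ± 0.15 (SE), and the small GTPase gene Rab2b was lower at -2.05 ± 0.36 (SE). Against a fold change of 1.5, 2 vesicle genes were higher and 3 lower. With library totals alone 6 rose and 5 fell, without IP replicate 1, IP replicate 2 or Input replicate 3 there were 5 and 3, without IP replicate 3 there were 5 and 4, and without both libraries of replicate 2 and of replicate 3 there were 6 and 3 and 1 and 1. The list shares Snap25 with the pan-neuronal genes, of which 7 of 18 rose and 1 fell.

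A list of 17 peptidases and their relatives was counted as well, and whether each breaks down released peptides was not tested. Of these 17 genes 1 rose and 1 fell, or 5.88% each way, against 12.9% and 17.1% of all tested genes. Their median was -0.16. Ecel1, an endopeptidase of neurons, had 148, 173 and 169 CPM in IP against 50.1, 98.1 and 88.8 CPM in Input, a log2 fold change of 1.05 ± 0.24 (SE). Ide, the insulin-degrading enzyme, was lower at -0.64 ± 0.21 (SE, adjusted p = 0.0487, edgeR), and kept that call in 1 of 6 fits that left out 1 library.

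Substrates of the pathway were counted in the same fit. Of 24 tested genes whose peptides end in an amide, and which therefore need Pam, 7 rose and 2 fell, or 29.2% and 8.33%. Among all tested genes 12.9% rose and 17.1% fell, and among the 18 pan-neuronal genes 38.9% rose and 5.56% fell. The median of the amidated precursors lay at 0.75 on the log2 scale. Without IP replicate 3 the count that rose was 4, without Input replicate 3 it was 3, against a fold change of 1.5 it was 2, and without both libraries of replicate 3 it was 0 (edgeR). Trh, the precursor of thyrotropin-releasing hormone, stood at 1.38 ± 0.29 (SE) and Gnrh1, that of gonadotropin-releasing hormone, at 2.80 ± 0.62 (SE). Gnrh1 lost its call in 1 of 6 fits that left out 1 library (adjusted p = 0.0509, edgeR). Avp and Oxt, the vasopressin and oxytocin genes, were lower at -1.65 ± 0.32 and -1.22 ± 0.35 (SE), and Oxt kept its call in 2 of 6 such fits. Of 12 other peptide precursor genes tested 5 rose and 0 fell, or 41.7% and 0%, and their median was 1.36. Among them were Sst, at 1.75 ± 0.21 (SE), and Pnoc, at 2.06 ± 0.22 (SE). Cre was driven by Pnoc, so a rise of this gene follows from the design, and the count of 5 and the median include it. Pnoc had 47.7, 43.1 and 41.1 CPM in IP against 7.51, 11.0 and 13.2 CPM in Input, which checks the labels. The amidated precursor genes Nmu, Npff and Ucn and the other precursor genes Nppa and Npw were too low to test, and Kiss1 was not analysed here.

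**Figure D4:**
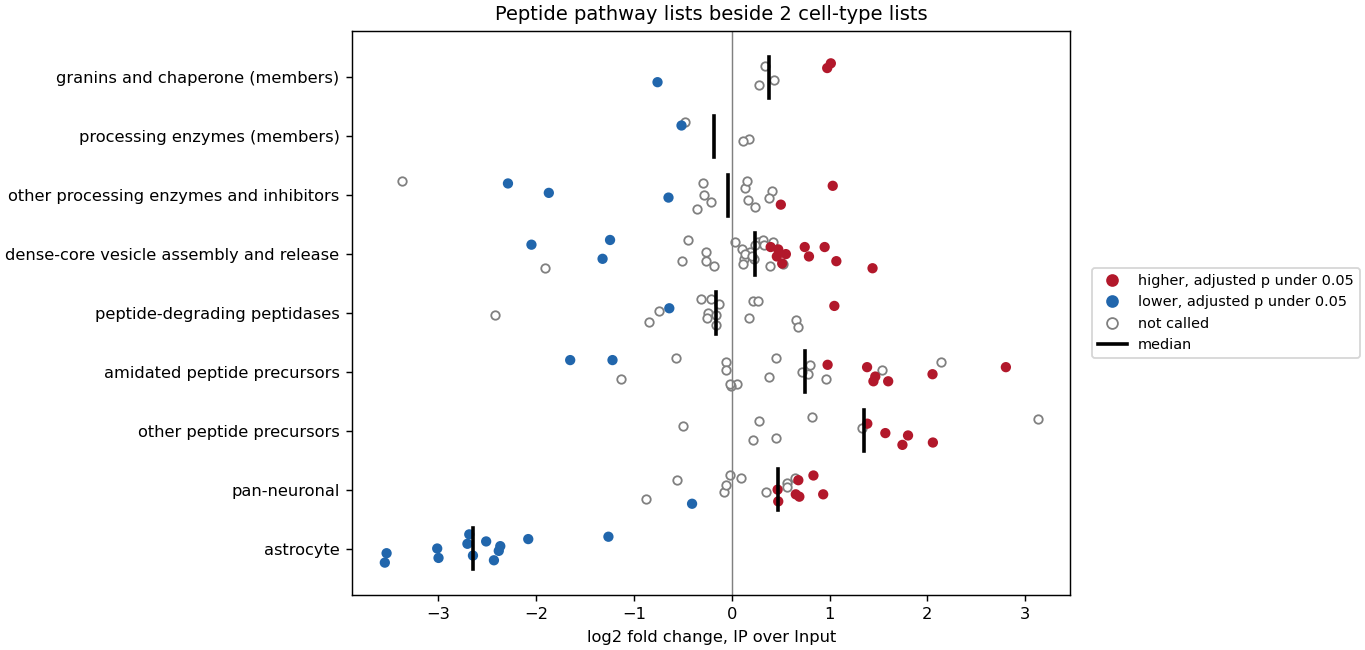
Log2 fold change of IP over Input for every tested gene of each list (points), with the median of the list (bar); red and blue mark genes with an adjusted p under 0.05. The medians run from -0.18 for the 4 enzymes and 0.38 for the granins with Scg5 to 0.75 and 1.36 for the peptide precursors, and astrocyte markers lie at -2.65. The list with the median of 1.36 includes Pnoc, the gene that drove the Cre.

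Other cell-type markers give the setting of these values, beside the 12.9% of all tested genes that rose and the 17.1% that fell. All 12 oligodendrocyte and all 12 microglial markers fell, as did 7 of 10 endothelial and 4 of 8 ependymal and tanycyte markers. Of GABAergic genes 5 of 10 rose, and of glutamatergic genes 1 of 7 rose and 1 fell. Of striatal markers 3 of 7 fell, and of 6 cortical excitatory markers 0 passed in edgeR or DESeq2, with 0 at an unadjusted p under 0.05 in either tool. Summed striatal markers ran from 189 to 424 CPM in IP and from 354 to 1567 CPM in Input. Summed cortical markers ran from 93.0 to 213 CPM in IP and from 72.7 to 623 CPM in Input. Both Input maxima were in replicate 1. In that pool the Input levels of Chga, Scg2, Scg5 and Cpe were lowest, and those of Chgb, Pcsk1, Pcsk2 and Pam were highest. The part of this difference between pools in the values of the members was not tested. Without both libraries of replicate 1 Chga stood at 0.81, Scg5 at 0.87, Scg2 at 0.20, Cpe at -0.50 and Scg3 at -0.88. Pcsk1 then stood at -0.45 and was not called (adjusted p = 0.0695, edgeR), with Chgb at 0.44, Pcsk2 at 0.31 and Pam at 0.16.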

How the data were processed

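RNA of 3 IP and 3 Input pools was sequenced as paired ends of 75 bases. HISAT2, featureCounts and DESeq2 and the build mm39 are named in the submitters' processing notes, and versions and strand setting are not given in the sources used here. The deposited read counts per gene are whole and not normalized. The deposited normalized signal was found to equal the counts times 1 factor per library, and the authors' FPKM that signal per kilobase of gene length, both to within a relative tolerance of 1e-06. The deposited log2 fold changes and p-values are those of the authors.

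Counts were tested with edgeR 4.0.16 (R 4.3.3; glmQLFit, glmQLFTest, TMM scaling, filterByExpr, group as the only factor, Benjamini-Hochberg adjustment over 18640 genes, two-sided). All 10 members passed the filter. SE is the log2 fold change divided by the square root of F. CPM use TMM-scaled library sizes. The fits were tested on simulated data.

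Input RNA of each pool was prepared beside its IP, per the series' design text, so equal replicate numbers pair the libraries. Deviations from group means correlated at 0.35, 0.20 and 0.15 between same-numbered libraries, and a replicate block was an alternative. Between libraries of different number they ran from -0.31 to 0.16. IP replicate 3 correlated at 0.155 with Input replicate 2 and at 0.155 with Input replicate 3, so its pairing rests on the design text alone. Others were DESeq2 1.42.0, other scaling factors, other filters, single libraries or pools left out, a threshold of 1.5-fold, and splines of 4 degrees of freedom for gene length and GC content (from GENCODE M39 transcripts, for 98.9% of genes).

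The members and lists were chosen with earlier results of these data known. Named genes are the members, Pnoc, the 2 smallest adjusted p in each direction in each pathway list and the 2 smallest in each marker list, and the 3 nearest profiles; 1 gene under this rule is not reported here. The smallest count of a member in any library was 1334 (Pcsk1). Replicates are pools, so p-values measure spread between pools, not between animals. No protein sequences were used here.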

Additional observations from a re-analysis of the deposited data

How the results depend on the processing

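Of 39 named genes called, 29 kept their call in all 6 fits that left out 1 library. Chga, Scg5 and Scg3 were among them and Pcsk1 was not. The named genes of the pathway and marker lists were chosen for the smallest adjusted p. Their share of kept calls therefore does not describe all called genes. Against a fold change of 1.5, 448 genes were higher and 1656 lower, as were 1 and 0 members, 1 and 2 other processing enzymes, 2 and 3 vesicle genes, 0 peptidases in either direction, and 2 and 1 amidated precursors. That test asks for a larger change by its construction. Without the low-count filter 1 member was lower, since Pcsk1 had an adjusted p of 0.0503 (edgeR).

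With the replicate block 2838 genes were higher and 3617 lower, 3 members were higher (Chgb added) and 3 lower (Cpe added), and 2 peptidases were lower; the block changed no other call among the members. With library totals alone 1734 genes were higher and 3678 lower, a share of 32.0% higher among calls against 42.9% with TMM, and the counts were 1 for higher processing enzymes, 6 and 5 for higher and lower vesicle genes and 2 for lower peptidases. RLE factors gave 0 lower peptidases. Length and GC correction gave 1 higher processing enzyme, and 3 higher and 0 lower peptidases. Together with the replicate block it gave 16 higher vesicle genes, 3 higher peptidases and 1 lower precursor that is not amidated. Vgf turned to -0.12 under the correction and to -0.13 with the block added, and Dnajc21 to 0.056 in both. The causes were not tested.

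Leaving out 1 library or both libraries of a pool gave 133 to 2630 higher and 742 to 3080 lower genes, the lowest without replicate 3. Members ranged from 0 to 3 higher and from 0 to 2 lower, other processing enzymes from 1 to 3 higher, vesicle genes from 1 to 11 higher and 1 to 4 lower, peptidases from 0 to 1 in each direction, amidated precursors from 0 to 8 higher and 0 to 2 lower, and other precursors from 2 to 5 higher. Pcsk2 ranged from -0.037, without IP replicate 2, to 0.31. All 4 ratios kept their direction in each fit without 1 library. Leaving out a pool leaves 2 against 2 libraries, so fewer calls follow in part from fewer samples.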

Other observations

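The receptor-like phosphatase genes of the dense-core vesicle membrane, chosen here after their values were seen, moved in opposite directions. Ptprn, or IA-2, averaged 480.0 CPM in IP and 327 CPM in Input and rose by 0.55 ± 0.12 on the log2 scale (SE, adjusted p = 0.00883, edgeR). Ptprn2, or phogrin, averaged 56.8 CPM in IP and 135 CPM in Input and fell by 1.24 (SE 0.23, adjusted p = 0.00502, edgeR). Rab3a, a GTPase of vesicle docking, averaged 1686 CPM in IP and 803 CPM in Input, at 1.07 ± 0.16 (SE). Resp18, a protein of the neuroendocrine secretory pathway, averaged 285 CPM in IP and 147 CPM in Input, at 0.95 ± 0.30 (SE, adjusted p = 0.0463, edgeR).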
